A study of Homo sapiens with 84 samples.

Results

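The comparison concerned 8 of the 84 RNA-seq libraries of the study: Kyse30 cells treated with a low dose of epidermal growth factor (EGF), 1.8 nM and called EGFlow, collected after 72 h (4 libraries) or after 6 h (4 libraries). Members were chosen by the dose and time in their titles, and all genes were compared. Kyse30 is an established esophageal squamous cell carcinoma line. The study used it, beside a second carcinoma line that was not analysed here, to follow gene expression after activation of the EGF receptor (EGFR) by different doses of EGF or by the extracellular domain of EpCAM, over time. All cells were first plated with serum and then kept without serum before and during treatment, so that within EGFlow the time with EGF and the time without serum cannot be told apart. The reference groups were untreated Kyse30 cells at 6 h and 72 h (3 libraries each) and Kyse30 cells with 9 nM EGF, called EGFhigh, at 6 h (4 libraries) and 72 h (3 libraries). The labels name no separate passages or donors, and as all samples are of 1 line, p-values measure the spread between these libraries only.

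EGF bound to EGFR activates the RAS, RAF, MEK and ERK kinase cascade and the PI3K and AKT pathway. ERK switches on immediate-early genes within minutes, mostly transcription factors of the FOS, EGR and ATF families, and soon afterwards the phosphatases and adaptors that shut the cascade down again. AKT and the growth programme downstream of MYC and mTOR drive ribosome and sterol synthesis and hold the FOXO factors, which serve starvation responses, out of the nucleus. Bound receptor is taken up, and part of it is degraded.

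The 8 libraries held 3703085 to 8883849 reads counted in genes, and 3 counts, taken as the floor of a library, corresponded to 0.35 to 0.85 CPM, the unit of all levels given here, which is a gene's count scaled to the TMM-adjusted total of its library. Epithelial genes were well covered, with 2030 to 3580 CPM summed over the squamous epithelial markers, among them the desmosomal DSP at 277 to 356 CPM at 6 h and 328 to 481 CPM at 72 h. The basal keratins that usually define squamous cells were nearly absent, however, with KRT5 at 0.664 to 3.85 CPM and KRT14 at 0.127 to 1.49 CPM at 6 h, and at 1.03 to 3.29 and 0.508 to 2.74 CPM at 72 h. The 6 immune and 5 endothelial markers summed to at most 1.90 and 3.35 CPM per library, and the 7 fibroblast markers to at most 43.7 CPM, nearly all of it COL1A1 and COL1A2. At 6 h, replicate 2 stood apart from the other 3 EGFlow libraries: FOXD1, a forkhead transcription factor, lay at 153, 48.7, 151 and 164 CPM in replicates 1 to 4, and TXNIP at 52.9, 369, 63.7 and 40 CPM. For these genes it lay towards untreated cells at 6 h, which had FOXD1 at 19.8 to 36.1 CPM and TXNIP at 276 to 425 CPM, and for FOSL1 (50 CPM in replicate 2) it lay within their range of 28.9 to 64.8 CPM. At 72 h it was replicate 4 that stood apart for some genes, with the stress keratin KRT6A at 6.57, 20.4, 11.3 and 126 CPM.

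From 6 to 72 h, 2265 of 15350 genes tested (14.8%) were differentially expressed (DEGs), defined as |log2 fold change| (log2FC) above 0.5 with an adjusted p-value of at most 0.05 in edgeR's quasi-likelihood test. Higher at 72 h were 1140 genes (7.43%), lower were 1125 (7.33%). Of the higher genes 273 exceeded a log2FC of 2, against 64 of the lower ones below -2. The 4 libraries of one time did not overlap with the 4 of the other for 1875 of the DEGs, against 3101 of all 15350 genes (20.2%; 10.2% higher and 9.99% lower). When any 1 of the 8 libraries was left out the count was 1554 to 2169, lowest without replicate 1 at 6 h. Without replicate 2 at 6 h the count was 2169, of which 1904 were among the 2265, and without replicate 4 at 72 h it was 2123, of which 1907 were.

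**Figure D1:**
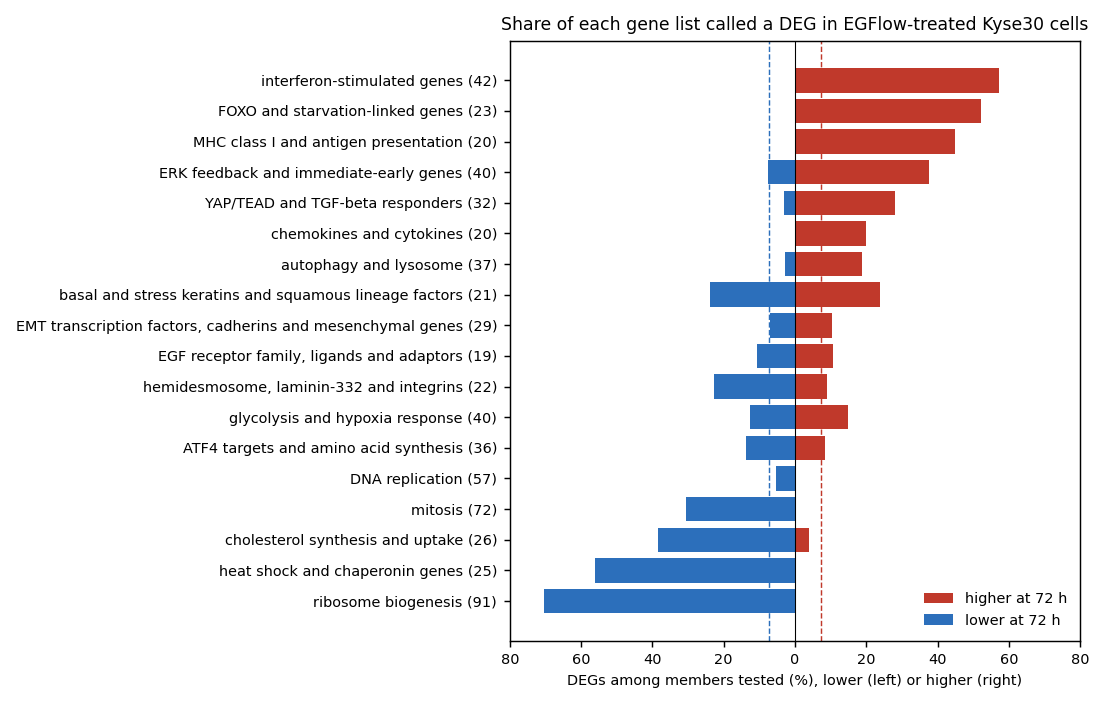
Share of the tested members of 18 gene lists (number tested in brackets) that were DEGs in EGFlow-treated Kyse30 cells at 72 h against 6 h, with higher members to the right and lower members to the left; dashed lines give the share over all genes, 7.43% and 7.33%. Ribosome biogenesis genes reached the longest bar to the left and interferon-stimulated genes the longest to the right.

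The 10 leading genes in each direction fell into a few kinds. They were ranked by log2FC among DEGs with a mean of at least 5 CPM and no overlap between the times. Among those that rose, ATF3, EGR2, FOS and FOSB are immediate-early transcription factors, PTGS2 makes prostaglandins, ID2 blocks basic helix-loop-helix factors, TXNIP restrains glucose uptake and FGD3 is a guanine nucleotide exchange factor. FGD3 was near the floor at 6 h (1.39, 0.233, 0.334 and 0.166 CPM) and at 30.9, 17.9, 9.88 and 4.52 CPM at 72 h. SLC16A12, a membrane transporter, lay at 0.253, 1.05, 1.84 and 3.49 CPM at 6 h and 17.9, 37.3, 28.8 and 4.66 CPM at 72 h. The long non-coding RNA AC011379.1 completed the list with 0.167 to 1.99 CPM against 3.67 to 29.6 CPM. Among those that fell, RGS2 dampens G protein signalling, SPHK1 makes sphingosine-1-phosphate, ETS1 and FOXD1 are transcription factors, GAL encodes the peptide galanin, UPP1 breaks down uridine and PDE2A degrades cyclic nucleotides. GAL was at 51.6 to 101 CPM at 6 h and 10.2 to 14.7 CPM at 72 h, and UPP1 at 32.6 to 159 and 9.31 to 27.8 CPM. PDE2A had 299 counts over the 6 h libraries and 3 over the 72 h libraries, a ratio per counted read of 92.7 with a 95% interval of 31.4 to 452 that pools the libraries and covers counting error only, not the larger spread between libraries. The remaining genes were the non-coding LINC00707 (11.8 to 29 CPM at 6 h, 0.847 to 2.19 CPM at 72 h), SPOCD1 (8.13 to 17.6 and 0.516 to 1.69 CPM) and the keratin-associated KRTAP2-3 (15.6 to 85.7 and 1.16 to 10.4 CPM), which has near-identical neighbours and is uncertain.

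Of 40 immediate-early and ERK feedback genes tested 15 rose, 3 fell and 22 did not pass, with a median log2FC of 0.53 beside 0.08 over all genes. The shares were 37.5% higher and 7.5% lower, beside 7.43% and 7.33% over all genes. The count of 15 was 10 to 14 when any 1 of the 8 libraries was left out. ATF3 lay at 23.9, 14.6, 21.6 and 32.2 CPM at 6 h and at 525, 536, 434 and 424 CPM at 72 h. The groups were far apart, at log2FC 4.38 (SE 0.43, adjusted p-value 3.54e-09). FOSB moved from 22.5, 36.1, 34 and 22.6 CPM to 717, 583, 426 and 268 CPM (log2FC 4.11, SE 0.40, adjusted p-value 3.54e-09), and FOS from 19, 49.4, 22.9 and 13.9 CPM to 242, 571, 738 and 345 CPM (log2FC 4.16, SE 0.60, adjusted p-value 5.54e-06). Both encode partners of JUN in the AP-1 factor. Both were among the leading genes, for which lack of overlap between the times was required, so it is no further evidence for them. EGR1, a zinc finger factor and direct ERK target, was at 240.3, 299, 174 and 298 CPM at 6 h and 1478, 1338, 1245 and 1519 CPM at 72 h, a 5.52-fold difference. Its relative EGR2 was near the floor at 6 h (0.127, 1.05, 0.167 and 0.664 CPM) and at 6.57, 10.3, 10.2 and 16.8 CPM at 72 h. DUSP1, a phosphatase that inactivates MAP kinases, rose from 11.5, 13.3, 9.37 and 11.3 CPM to 97.2, 113, 114 and 51.2 CPM (8.21-fold, adjusted p-value 4.79e-06). PTGS2, itself a rapid-response gene, rose from 13.2, 17.4, 12.9 and 6.64 CPM to 256, 270.4, 244 and 153 CPM (18.3-fold, adjusted p-value 2.77e-07).

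The 3 members of that list that fell were FOSL1, PHLDA2 and DUSP4, of which FOSL1 and DUSP4 are known as delayed ERK targets. FOSL1, the AP-1 partner FRA1, was at 235, 50, 141 and 175 CPM at 6 h and 43.4, 39.9, 19.5 and 29.9 CPM at 72 h (log2FC -2.17, SE 0.50, adjusted p-value 0.00252). PHLDA2, a growth-restraining protein, was at 523, 212, 468 and 679 CPM and 171, 73.8, 80.2 and 139 CPM (adjusted p-value 5.29e-05). In both genes the groups did not overlap, but replicate 2 had the lowest value of the 6 h libraries. DUSP4, an ERK phosphatase, overlapped between the groups in the same library, at 186, 82, 155 and 199.8 CPM against 76, 84.2, 77.9 and 88.6 CPM, and without replicate 4 at 6 h it did not pass (adjusted p-value 0.0568). RGS2, also lowest in replicate 2 at 6 h, was at 124, 42.1, 124 and 102 CPM at 6 h and at 3.48, 21.5, 13.5 and 13.7 CPM at 72 h (log2FC -2.90, SE 0.48, adjusted p-value 3.94e-05). ETS1, which acts on ERK-driven promoters, dropped from 48.2, 13.2, 41.3 and 64.1 CPM to 3.35, 6.22, 4.8 and 10 CPM (6.76-fold lower). SPHK1 was at 42.8, 21.9, 39.1 and 56.4 CPM at 6 h and at 0.773, 7.11, 3.95 and 4.93 CPM at 72 h (9.48-fold lower).

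Promoters of the early genes are known for binding sites of serum response factor, the CArG box, and of CREB and ATF factors, the CRE with the letters TGACGTCA. RefSeq promoter sequences (250 bases before to 50 after the start site, build GRCh38.p14) were at hand for 28 of the 40 genes. A CArG box stood in 1 of them (3.57%), against 1.08% of the 10319 promoters matched to genes tested, and a CRE in 2 (7.14%, against 3.28%). Both strands were searched for every motif. The stretches are shown because EGR1 and DUSP1 rose together, with the motif of each in capitals; EGR1 is from chr5:138465341-138465460 on the plus strand and holds 2 CArG boxes, and DUSP1 from chr5:172771256-172771375 on the minus strand holds 1 CRE.
EGR1: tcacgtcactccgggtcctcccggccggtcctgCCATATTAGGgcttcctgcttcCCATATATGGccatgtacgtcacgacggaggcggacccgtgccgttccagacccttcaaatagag
DUSP1: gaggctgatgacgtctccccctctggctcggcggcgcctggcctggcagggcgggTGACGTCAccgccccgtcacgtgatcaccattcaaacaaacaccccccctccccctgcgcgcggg
A match describes the letters only and does not show binding.

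**Figure D2:**
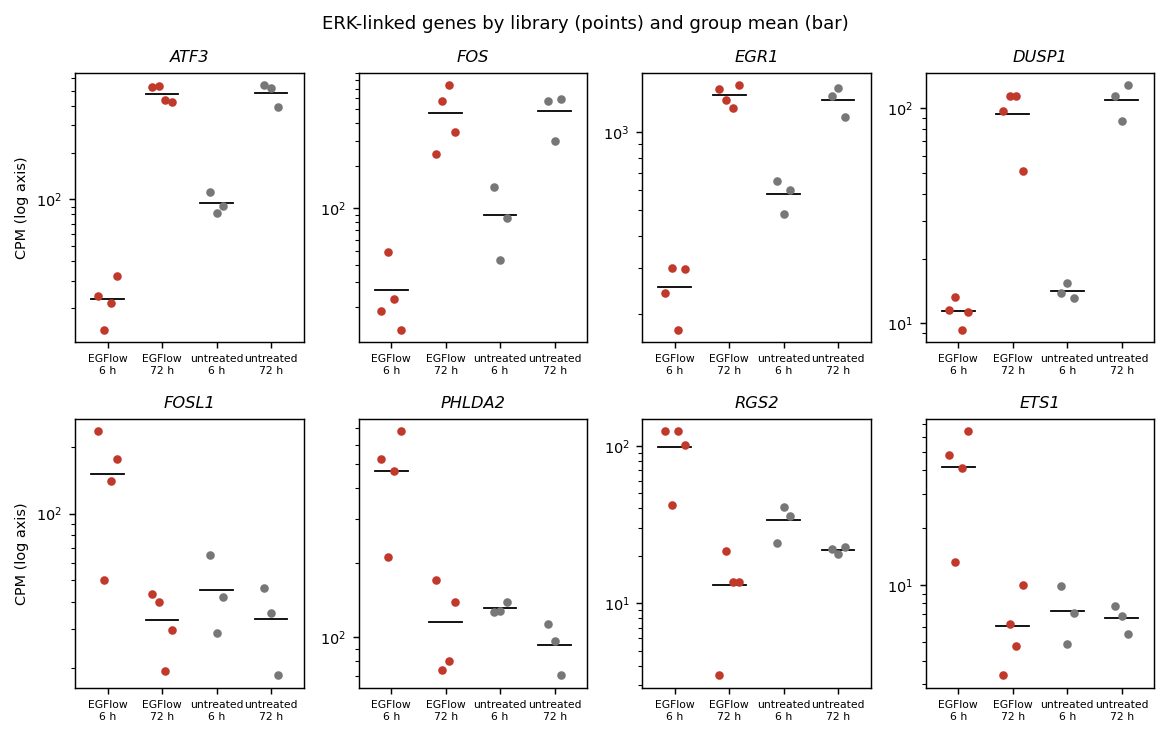
CPM (log axis) of 4 immediate-early or feedback genes that rose (top) and 4 ERK-linked genes that fell (bottom) in EGFlow-treated Kyse30 cells, beside untreated cells at the same times. Each point is 1 library and each bar a group mean. RGS2 and ETS1 were not members of the list of 40 genes but were taken from the 10 leading genes that fell. In the list 15 genes rose and 3 fell, and DUSP4, which also fell, is not shown. At 6 h the EGFlow libraries lay below the untreated ones for ATF3 and EGR1, and above them for PHLDA2, RGS2 and ETS1, whereas 3 of the 4 lay above them for FOSL1.

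Genes for building ribosomes made up the list with the highest share of lower genes. Of 91 ribosome biogenesis genes tested 64 fell, 0 rose and 27 did not pass, and 90 of 91 had a negative log2FC (median -0.82, beside 0.08 over all genes). The share lower was 70.3%, beside 7.33% over all genes. NPM1, the nucleolar chaperone nucleophosmin, lay at 2864, 2279, 2359.9 and 2433 CPM at 6 h and at 1165, 1157, 1160.3 and 999 CPM at 72 h. This was 2.22-fold lower (log2FC -1.15, SE 0.14, adjusted p-value 3.76e-07), though copies of NPM1 elsewhere in the genome share reads with it and its count is uncertain for that reason. BYSL, needed for the small ribosomal subunit, fell from 52.9, 57.8, 47.3 and 53.6 CPM to 20.9, 17.4, 11.9 and 20.7 CPM (log2FC -1.57, SE 0.24, adjusted p-value 1.68e-05). NOP16, a nucleolar protein, fell from 107, 111, 125 and 121 CPM to 25.6, 56.4, 31.6 and 45.5 CPM (adjusted p-value 3.18e-05), and TSR1, a small-subunit assembly factor, from 161, 165, 161 and 130.3 CPM to 82.4, 72.4, 62.1 and 80.8 CPM (adjusted p-value 5.10e-05). In none of these did a 72 h library reach a 6 h library, and replicate 2 at 6 h did not stand apart. The count of 64 lay between 52 and 64 when any 1 of the 8 libraries was left out.

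The E-box CACGTG, which MYC and related factors can bind, was found in 30 of 79 ribosome biogenesis promoters (38%), against 9.96% of the 10319 promoters. This share of the whole list is no result of these libraries, and binding was not tested. Among the 54 DEGs of the list with a promoter 24 held it (44.4%). UTP20, a scaffold of the small-subunit processome, was the DEG of this list with the lowest p-value among those with the E-box in an untranscribed stretch, shown here from chr12:101279985-101280104 on the plus strand with the E-box in capitals.
UTP20: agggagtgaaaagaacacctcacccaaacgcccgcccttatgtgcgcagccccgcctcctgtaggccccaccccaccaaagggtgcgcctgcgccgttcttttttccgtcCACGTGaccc
UTP20 itself lay at 88.2, 97.2, 104 and 96.4 CPM at 6 h and 39.8, 40.3, 33 and 41.1 CPM at 72 h (2.49-fold lower, adjusted p-value 1.55e-04).

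Protein folding and sterol synthesis went the same way. Of 25 heat shock and chaperonin genes 14 fell (56%, beside 7.33% over all genes) and 0 rose (median log2FC -0.72). CCT2, a subunit of the chaperonin that folds actin and tubulin, was at 252, 266, 270.3 and 299 CPM at 6 h and 102, 124, 115 and 171 CPM at 72 h (adjusted p-value 1.02e-05). HSPA8, the constitutive HSP70, fell 3.19-fold (189 to 260.3 CPM against 49.2 to 101 CPM), HSPD1, the mitochondrial HSP60, 2.13-fold and the HSP90 partner CHORDC1 3.82-fold; HSPA8 and HSPD1 share reads with gene copies. Of 26 cholesterol synthesis and uptake genes 10 fell (38.5%) and 1 rose (3.85%), with a median log2FC of -0.77. LPIN1, a phosphatidate phosphatase, was at 152, 135, 173 and 133 CPM and 51.2, 38.5, 35.8 and 67.1 CPM, 3.07-fold lower (adjusted p-value 1.82e-05). DHCR7, the last enzyme of cholesterol synthesis, was 2.46-fold lower with 968, 1010.1, 1044 and 712 CPM against 606, 290.2, 268 and 353 CPM, and NSDHL and ACAT2, earlier enzymes, were 1.88-fold and 2.12-fold lower. Of the fatty acid genes 4 of 15 fell (26.7%) and 0 rose (median log2FC 0.09). Among those that fell was fatty acid synthase, FASN, at 1152 to 1388 CPM and 361 to 1000.1 CPM. Replicate 1 held the highest 72 h value of DHCR7 and FASN.

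Of 72 mitosis genes 22 fell and 0 rose (median log2FC -0.56), whereas 3 of 57 DNA replication genes fell and 0 rose (median -0.19). The shares lower were 30.6% and 5.26%, beside 7.33% over all genes. CDC20, an activator of the anaphase-promoting complex, was at 109, 103, 152 and 108 CPM at 6 h and 29.5, 61.6, 39 and 55.7 CPM at 72 h (2.54-fold lower, adjusted p-value 2.56e-05). The kinase PLK1 was at 84.8, 109, 69.2 and 64.4 CPM and 28.4, 50.9, 25.4 and 27.8 CPM, and BIRC5, also known as survivin, and CDCA8, both of the chromosomal passenger complex, were 2.19-fold and 2.01-fold lower. The count of 22 was 10 without replicate 3 and 14 without replicate 1 at 72 h. In bulk RNA, fewer dividing cells and less of these RNAs per cell cannot be told apart. CCND1, cyclin D1, which links growth factor signals to the cell cycle, was at 682, 501, 589 and 597 CPM at 6 h and 516, 338, 317 and 302 CPM at 72 h (log2FC -0.68, SE 0.19, adjusted p-value 0.0105), with replicate 1 at 72 h inside the range of the 6 h libraries.

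Interferon-stimulated genes were the list with the highest median. Of 42 tested 24 rose and 0 fell, at a median log2FC of 1.61, and 41 of 42 had a positive log2FC. The share higher was 57.1%, beside 7.43% over all genes. IFITM3, a membrane protein that blocks entry of viruses, lay at 290.1, 520.0, 225 and 192 CPM at 6 h and at 2169, 1598, 1809 and 1095 CPM at 72 h. It was 5.43-fold higher (log2FC 2.44, SE 0.30, adjusted p-value 5.89e-07); its neighbour IFITM2 was 5.58-fold higher (4.05 to 10.5 CPM against 26.8 to 60.7 CPM), and the 2 share sequence, so that their reads can be hard to assign. LGALS3BP, a secreted glycoprotein, rose from 52, 93, 58.4 and 37 CPM to 222, 196, 181 and 116 CPM (adjusted p-value 6.50e-05). IFI6, an inhibitor of viral replication, was at 4.81, 43, 10.7 and 2.82 CPM at 6 h and 279, 219, 178 and 36.6 CPM at 72 h (log2FC 3.51, SE 0.64, adjusted p-value 1.78e-04). For IFI6 the groups overlapped, as replicate 2 was the highest library at 6 h and replicate 4 the lowest at 72 h. The count of 24 was 14 without replicate 3 or without replicate 4 at 6 h and 15 without replicate 1 at 72 h.

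MHC class I genes, which present peptides to T cells, rose as well: 9 of 20 rose (45%) and 0 fell (median log2FC 1.08). B2M, the light chain of all class I molecules, was at 253, 258, 274 and 221 CPM at 6 h and 646, 800.4, 728 and 624 CPM at 72 h (2.78-fold, adjusted p-value 5.10e-05). HLA-E was at 144, 163, 124 and 119 CPM and 358, 272, 374 and 307 CPM (2.38-fold, adjusted p-value 6.44e-07), and HLA-B was 3.64-fold higher. For B2M and HLA-E every 72 h library lay above every 6 h library. Reads of the polymorphic and similar HLA genes may be split between them. The immune markers stayed near 0, with the leukocyte antigen PTPRC at 0 in 7 of 8 libraries and CD3E at 0 in all 8.

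The interferon-stimulated response element, searched as GAAA followed after any 2 bases by another GAAA, was present in 22 of 33 promoters of interferon-stimulated genes (66.7%) and in 6 of 15 of the MHC class I list (40%), against 2.66% of the 10319 promoters. Among the 21 interferon-stimulated DEGs with a promoter the share was the same, 66.7%, and the list is known for this element, so that its share is no result of these libraries. The stretches of IFI6 (chr1:27672221-27672340, minus strand) and B2M (chr15:44711324-44711443, plus strand) are shown with the element in capitals, as DEGs of the 2 lists chosen by the same rule as EGR1 and DUSP1.
IFI6: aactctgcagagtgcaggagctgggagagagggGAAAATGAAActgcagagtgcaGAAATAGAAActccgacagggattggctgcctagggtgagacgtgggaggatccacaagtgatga
B2M: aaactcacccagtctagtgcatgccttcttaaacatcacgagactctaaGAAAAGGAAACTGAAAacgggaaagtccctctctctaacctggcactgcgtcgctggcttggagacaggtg
Each of the 2 stretches holds 2 matches, which overlap in B2M.

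**Figure D3:**
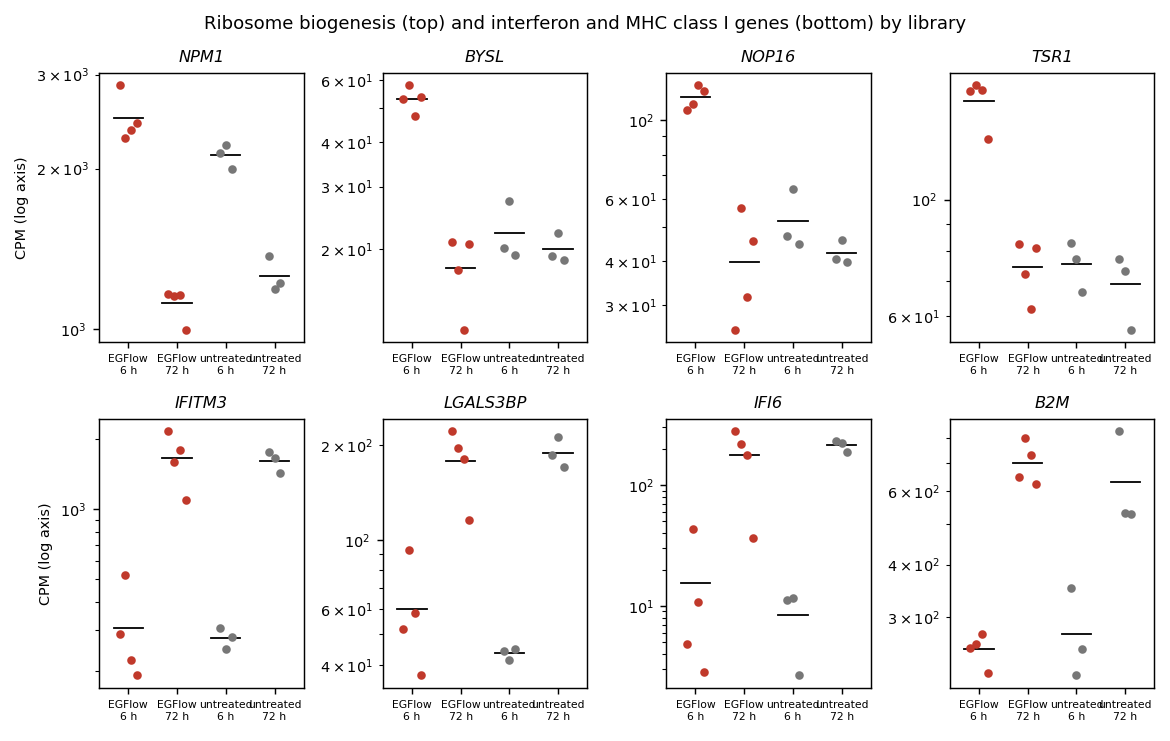
CPM (log axis) of 4 ribosome biogenesis genes (top) and 4 interferon or MHC class I genes (bottom) in EGFlow-treated and untreated Kyse30 cells at 6 h and 72 h; each point is 1 library and each bar a group mean. At 6 h all EGFlow libraries lay above all untreated ones for the top genes, at 72 h the ranges overlapped for BYSL, NOP16 and TSR1, and the bottom genes rose in both treatments.

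FOXO and starvation-linked genes rose, with 12 of 23 higher (52.2%, beside 7.43% over all genes) and 0 lower (median log2FC 1.13). TXNIP lay at 1304, 1813, 2969 and 1301 CPM at 72 h (log2FC 3.81, SE 0.54, adjusted p-value 4.53e-06), above all 6 h libraries including replicate 2. GABARAPL1, an autophagy gene, was at 69.7, 54.2, 65.6 and 94.9 CPM and 222, 167, 164 and 201 CPM (adjusted p-value 1.71e-04), the insulin receptor INSR at 17.8, 24.6, 16.7 and 21.9 CPM and 52.5, 45.2, 68 and 48.6 CPM (adjusted p-value 2.35e-04), and the repressor BCL6 at 7.47, 24.8, 7.36 and 6.64 CPM and 42.4, 42.7, 45.7 and 56.8 CPM (adjusted p-value 9.08e-04). All are FOXO targets, and BCL6 like TXNIP had its highest 6 h value in replicate 2. Among autophagy and lysosome genes 7 of 37 rose (18.9%) and 1 fell (2.70%). The lysosomal protease CTSF led those that rose (0.498 to 8.51 CPM against 13.8 to 27.3 CPM). Of the 32 YAP/TEAD and TGF-beta responders 9 rose (28.1%) and 1 fell (3.1%). Besides ID2, from 4.3, 1.98, 8.53 and 3.32 CPM to 64.3, 138, 67.2 and 88.2 CPM, those that rose included ID1 (4.86-fold) and the matricellular protein CTGF (103, 18, 73.3 and 68.4 CPM to 161, 457, 499.6 and 317 CPM).

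EGFR itself, the receptor of EGF, was at 2451, 1727, 2517 and 2658 CPM at 6 h and 3037, 3339, 3962 and 2761 CPM at 72 h. With log2FC 0.49 (SE 0.16, adjusted p-value 0.0307) it lay just under the fold threshold, and it passed in 8 of 14 alternatives, at 0.50 to 0.56: RLE scaling, a mean of at least 5 CPM, DESeq2, only the libraries compared, and leaving out replicate 3 or 4 at 6 h or replicate 1 or 4 at 72 h. Of 19 receptors, ligands and adaptors tested 2 rose and 2 fell (10.5% each, beside 7.43% and 7.33% over all genes). ERBB2 and ERBB3, receptors that pair with EGFR, were 2.29-fold and 2.05-fold higher, and for ERBB2 replicate 4 at 72 h (90.4, 76.4, 113 and 35.3 CPM in replicates 1 to 4) fell within the 6 h range of 27.8 to 40.5 CPM. The ligand TGFA was at 79.4, 42, 58.2 and 82.3 CPM and 37.3, 21.5, 26 and 36.2 CPM (adjusted p-value 0.0253), and the adaptor GRB2, which joins the receptor to RAS, had log2FC -0.54. The call of TGFA was lost without replicate 1 or 4 at 6 h or replicate 2 or 3 at 72 h (adjusted p-values 0.0656 to 0.0818), and that of GRB2 without replicate 3 at 6 h or replicate 4 at 72 h (0.0792 and 0.0708).

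Epithelial and adhesion genes changed in both directions. Of 21 keratins and squamous lineage factors 5 rose and 5 fell (23.8% each, beside 7.43% and 7.33% over all genes). The simple-epithelial keratins KRT8 and KRT18 were 1.95-fold and 1.9-fold lower (KRT8 at 2620.2, 2369, 2909 and 2289 CPM at 6 h and 1530.2, 1082, 1477 and 1145 CPM at 72 h), SFN, the epithelial 14-3-3 protein, was 1.98-fold lower, a call lost without replicate 2 or 3 at 72 h or replicate 4 at 6 h (adjusted p-values 0.0558 to 0.0858). Of 22 hemidesmosome, laminin-332 and integrin genes 5 fell (22.7%) and 2 rose (9.09%, near the share over all genes). ITGA2, the collagen-binding integrin chain, was at 574, 369, 546 and 722 CPM and 209.8, 257, 180.4 and 196 CPM (log2FC -1.39, SE 0.21, adjusted p-value 1.19e-05), and its partner ITGB1 was 1.77-fold lower. LAMA3 (log2FC -0.61, adjusted p-value 0.199) and LAMB3 (log2FC -0.40, adjusted p-value 0.469), which encode laminin chains of the basement membrane, did not pass. DST, which anchors keratins at hemidesmosomes, was 2.36-fold higher.

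Of 29 EMT transcription factors, cadherins and mesenchymal genes 3 rose and 2 fell, and the median log2FC was -0.25. The shares, 10.3% higher and 6.90% lower, lay near the 7.43% and 7.33% over all genes. CDH1, E-cadherin, had 219.6, 177, 195 and 186 CPM at 6 h and 44.3, 164, 261 and 161 CPM at 72 h and did not pass (adjusted p-value 0.651), with replicate 1 alone low at 72 h. Vimentin, VIM, was at 34.5 to 60.4 CPM and 31.2 to 43.7 CPM (adjusted p-value 0.734). The 3 genes that rose were of mixed kinds: the tight junction claudin CLDN1 (349, 289, 309.9 and 308 CPM to 1085, 1513, 1329 and 668 CPM, adjusted p-value 3.30e-06), the calcium-binding S100A4 (3.1-fold) and fibronectin, FN1 (55.6, 101, 82.8 and 23.6 CPM to 268, 474, 216 and 51.8 CPM, adjusted p-value 0.00867). FN1 and the protease inhibitor TIMP3 (49.4, 79.7, 34.3 and 15.9 CPM to 433, 352, 316 and 54 CPM) overlapped between the times in replicate 4 at 72 h, and FN1 did not pass without replicate 2 at 72 h (adjusted p-value 0.0735). The hyaluronan receptor CD44 fell 1.9-fold (395 to 589 CPM against 192 to 375 CPM). EPCAM, whose extracellular part the study used as a ligand, was at 243, 221, 221 and 219 CPM and 219.9, 199.5, 180.1 and 140.3 CPM (adjusted p-value 0.366).

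Of the study's EGFR-mediated EMT signature, which was chosen on these samples and is no independent evidence, 17 of 171 genes rose and 40 fell (median log2FC -0.19). The shares were 9.94% higher and 23.4% lower, beside 7.43% and 7.33% over all genes. The signature mixes genes that the study found induced and suppressed, so these values do not show whether it was gained or lost. CDC20, also in the mitosis list, was among the 40. The partial EMT signature had 8 of 87 genes higher (9.20%) and 10 lower (11.5%). The EMT hallmark had 11 of 150 higher (7.33%) and 16 lower (10.7%). The shares higher lay near the 7.43% over all genes, and the shares lower were above the 7.33% over all genes. The study drew the 5 genes of its prognostic score from the EGFR-mediated EMT signature by patient survival in a tumour cohort. Only the signature they came from was thus chosen on these samples. Of the 5, FADD, an adaptor of death receptors, fell from 319, 231, 289.5 and 267 CPM to 165, 134, 176 and 179 CPM (adjusted p-value 4.62e-04). DDIT4, an mTOR inhibitor, fell from 518, 186, 426 and 391 CPM to 76.8, 89.7, 72 and 125 CPM (adjusted p-value 0.00106), and the ester hydrolase NCEH1 from 28.6, 18.9, 24.1 and 19.9 CPM to 13, 8.25, 11 and 13.8 CPM (adjusted p-value 0.0182). The call of NCEH1 was lost without replicate 1 at 6 h or replicate 2 at 72 h (adjusted p-values 0.0660 and 0.0670). ITGB4, the hemidesmosome integrin, was at 829, 838, 884 and 1181 CPM and 1317, 778, 1320.1 and 1727 CPM (log2FC 0.46, adjusted p-value 0.232) and TIMP1, a protease inhibitor, at 81.4 to 122 CPM and 71.2 to 133 CPM (adjusted p-value 0.978), so that neither passed.

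The remaining lists are given by their counts, to be read beside 7.43% higher and 7.33% lower over all genes. Some shares lay near these, as for the cornified envelope, with 5.13% higher and 7.69% lower. Higher and lower were 6 and 2 of 34 CDK inhibitors, cyclins D and p53 targets, 4 and 0 of 20 chemokines and cytokines, 6 and 5 of 40 glycolysis and hypoxia genes, 3 and 5 of 36 ATF4 targets, and 0 and 3 of 20 ER chaperones. The counts were 2 and 3 of 39 for the cornified envelope, 4 and 1 of 31 for desmosomes and tight junctions, 3 and 5 of 19 for S100 and annexin genes, and 3 and 2 of 23 for matrix proteases. They were 2 and 1 of 13 for complement, 2 and 3 of 27 for metallothioneins and oxidative stress, 0 and 1 of 17 for EpCAM-related genes, and 0 and 0 of 13 for mitochondrially encoded genes.

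To set the change with EGF beside that of time in culture alone, the EGFlow change was compared with that of untreated cells, with which it shares no library. In untreated cells 238 genes (1.55%) were DEGs between 72 h and 6 h, 119 higher and 119 lower (0.775% each), with 72 to 155 when any 1 of the 6 libraries was left out. Of the 119 that rose without EGF, 92 also rose with EGFlow, and of the 119 that fell, 83 also fell. Over all genes 7.43% rose and 7.33% fell with EGFlow. Of the 1140 genes that rose with EGFlow, 1007 had a positive log2FC in untreated cells (median 0.52, beside 1.24 with EGFlow), and of the 1125 that fell 996 had a negative one (median -0.41, beside -0.93). The untreated median over all genes was 0.02. Over all 15350 genes the log2FC of the 2 treatments had a Pearson r of 0.34 and a Spearman rho of 0.42, a description across genes that share libraries.

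Tested gene by gene, 0 of 15350 changes differed between EGFlow and untreated cells (0%), with a lowest adjusted p-value of 0.17 and 1229 genes at an unadjusted p-value under 0.05. DESeq2 called 47 genes. Without replicate 2 of EGFlow at 6 h edgeR called 11, among them ETS1, FOXD1, ITGA2 and KRTAP2-3, for each of which the EGFlow change was the lower one, and without replicate 1 of the untreated cells at 6 h it called 2, KRTAP2-3 and MICAL2, an actin-oxidizing enzyme named after its value was seen. The count of 0 was thus that of the edgeR fit with all libraries, and a gene that missed the threshold is not shown to have changed alike.

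At each time EGFlow was also set beside untreated cells, comparisons that share their libraries with the changes over time. At 6 h 230 genes were DEGs (1.5%), 125 higher with EGFlow (0.814%) and 105 lower (0.684%), and at 72 h 0 were in edgeR's test (0%), with 439 at an unadjusted p-value under 0.05. Of the 91 ribosome biogenesis genes 13 were higher with EGFlow at 6 h, at a median log2FC of 0.59, beside 0.03 at 72 h. The FOXO list had a median of -0.73 at 6 h and 0.05 at 72 h, with 0 of 23 called at 6 h.

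**Figure D4:**
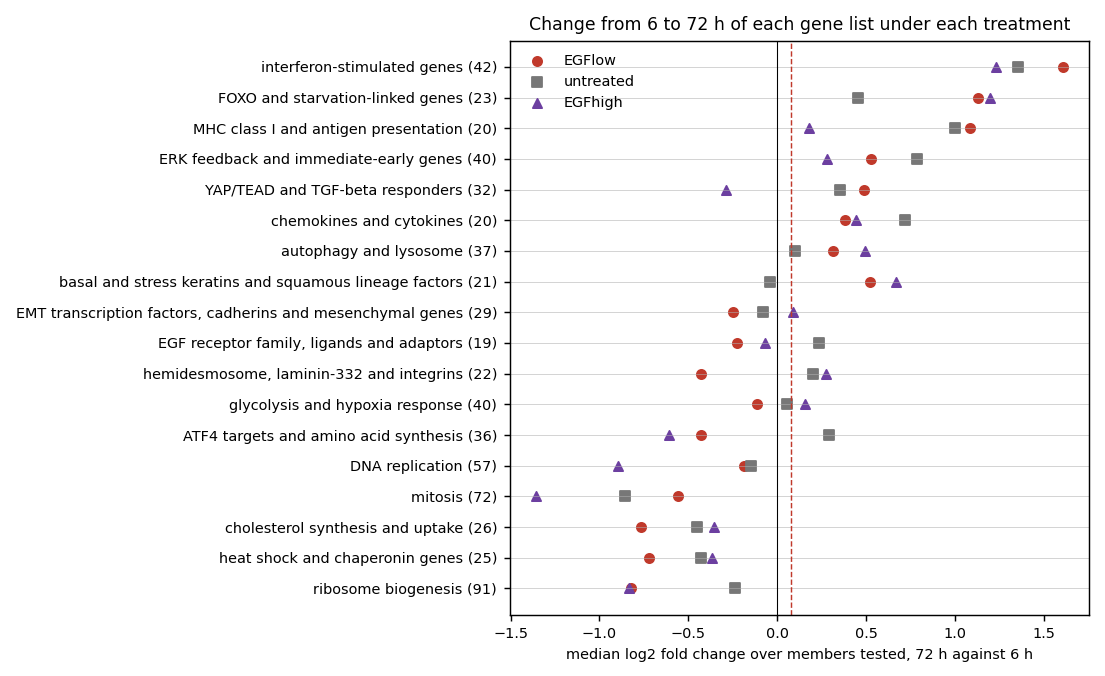
Median log2FC from 6 h to 72 h over the tested members of 18 gene lists (number in brackets) in EGFlow-treated, untreated and EGFhigh-treated Kyse30 cells; the dashed line is the EGFlow median over all genes, 0.08. For ribosome biogenesis the EGFlow and EGFhigh medians coincided near -0.8 with the untreated one at -0.24, whereas for interferon-stimulated genes all 3 exceeded 1.2.

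The changes of the lists are set side by side here by their medians and counts, with no test of a list. Interferon-stimulated genes (median 1.61 with EGFlow and 1.35 untreated, 11 of 42 DEGs higher in untreated cells) and MHC class I genes (1.08 and 1.00, 6 of 20) had positive medians in both. IFITM3 was at 306, 249.9 and 280.2 CPM in untreated cells at 6 h and 1764, 1665 and 1432 CPM at 72 h, and the difference between its changes was -0.10 (SE 0.44, log2). The immediate-early and ERK feedback list had a median of 0.53 with EGFlow and 0.78 untreated. In untreated cells 7 of its 40 genes were higher and 0 lower. FOSB and FOS rose without EGF at log2FC 3.14 and 2.45. Their untreated means at 72 h were 564.5 and 490 CPM, beside 498 and 474 CPM with EGFlow. PTGS2 (20.3, 15.3 and 8.0 CPM to 270.3, 218 and 247 CPM) and DUSP1 (13.9, 15.3 and 13.2 CPM to 114, 86.8 and 127 CPM) also rose without EGF, with differences of 0.12 (SE 0.66) and 0.09 (SE 0.62). Mitosis genes had a lower median in untreated cells, -0.86 with 10 of 72 lower, than with EGFlow.

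Ribosome biogenesis had a median of -0.24, beside -0.82 with EGFlow, and 1 of 91 genes lower in untreated cells, and 31 of 91 at an unadjusted p-value under 0.05 for the difference (lowest adjusted p-value 0.187). TSR1 in untreated cells was at 82.7, 77 and 66.6 CPM at 6 h and 77.1, 73.3 and 56.6 CPM at 72 h, the levels that EGFlow-treated cells had at 72 h, and BYSL at 20.2, 27.3 and 19.2 CPM and 19.1, 22.1 and 18.6 CPM. Untreated PHLDA2 was at 126, 128 and 139.6 CPM and 114, 96.9 and 70.3 CPM, and untreated ETS1 at 9.9, 4.92 and 7.16 CPM and 7.72, 6.87 and 5.52 CPM. DUSP4 was at 119.9, 123 and 128 CPM and 88.3, 64.9 and 49.3 CPM in untreated cells, and its EGFlow change minus its untreated change was -0.06 (SE 0.40). For the FOXO list, 2 of 23 rose untreated (median 0.45), with TXNIP at 425, 276 and 418 CPM and 1725, 1172 and 2616 CPM. EGFR was at 1717, 1555 and 1478 CPM in untreated cells at 6 h and 3638, 3938 and 4725 CPM at 72 h (log2FC 1.37, adjusted p-value 2.01e-05), and its EGFlow change minus its untreated change was -0.89 (SE 0.24, adjusted p-value 0.189) on the log2 scale. ATF3 started from 112, 82.4 and 90.8 CPM in untreated cells at 6 h, above the EGFlow libraries, and reached 540.4, 519 and 391 CPM.

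The change over time was also compared with that under the high dose. In EGFhigh-treated cells 1892 genes (12.3%) were DEGs between 72 h and 6 h, 933 higher (6.08%) and 959 lower (6.25%), and 945 and 1253 were DEGs without replicate 3 and replicate 4 of EGFhigh at 72 h. The change over time differed between EGFlow and EGFhigh for 117 genes (0.762%), with the EGFlow change the higher one for 60 (0.391%) and the lower one for 57 (0.371%). This count was 49 without replicate 2 of EGFlow at 72 h, and 65 without replicate 1 or replicate 3 of EGFhigh at 6 h. A difference is given here as the EGFlow change minus the EGFhigh change on the log2 scale.

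SPRR1B and SPRR2A fell with EGFlow and rose with EGFhigh. SPRR1B, a cornified envelope precursor, went from 102, 111, 81.3 and 111 CPM to 31.7, 8.0, 20.6 and 44.5 CPM with EGFlow and from 78.9, 76.2, 73.3 and 119.7 CPM to 668, 446 and 495 CPM with EGFhigh. Its difference was -4.57 (SE 0.53, adjusted p-value 1.15e-06), and that of its relative SPRR2A, whose reads can be shared with close copies, -4.86 (adjusted p-value 0.00437). CD44 was at 442, 502, 469 and 538 CPM and 615, 701 and 841 CPM with EGFhigh (difference -1.48, adjusted p-value 0.0107), and ITGB4 at 671, 888, 837 and 1462 CPM and 3123, 4357 and 4272 CPM (difference -1.56, adjusted p-value 0.0309). ITGA2 with EGFhigh was at 629, 587, 530.1 and 596 CPM and 551, 447 and 551 CPM (difference -1.21, adjusted p-value 0.0392). FOXD1, which fell under both doses, ended at 111, 32.3 and 56.2 CPM with EGFhigh and 7.86, 12.8, 13.3 and 19.2 CPM with EGFlow (difference -2.07, adjusted p-value 0.0401). PDE2A, at 0 to 0.282 CPM with EGFlow at 72 h, was at 26, 5.35 and 17.1 CPM with EGFhigh (adjusted p-value 6.67e-04), and FAM83A, an adaptor of EGFR signalling, at 0.564 to 5.89 CPM and 18.9 to 102 CPM (adjusted p-value 0.0141, and 0.0768 without replicate 1 of EGFhigh at 72 h).

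In the opposite direction stood the ID genes. ID2 was at 8.84, 4.74, 7.02 and 6.08 CPM with EGFhigh at 6 h and 7.46, 5.17 and 3.71 CPM at 72 h, so that all of its EGFlow libraries at 72 h lay above (difference 4.57, SE 0.81, adjusted p-value 0.00124). ID4 rose with EGFlow from 2.53, 2.68, 3.51 and 2.66 CPM to 26.7, 58.5, 51.1 and 18.1 CPM and was at 2.22, 1.78 and 0.856 CPM with EGFhigh at 72 h (difference 5.10, adjusted p-value 4.05e-05), and ID1 differed by 2.13 (adjusted p-value 0.0354). CTGF, at 16.3, 42.3 and 68.1 CPM with EGFhigh at 72 h, differed by 3.72 (adjusted p-value 0.006) and FN1, at 25.9, 13.9 and 22.6 CPM, by 3.51 (adjusted p-value 0.0181). The carboxypeptidase CPVL was at 10.2, 22.4, 19.5 and 9.86 CPM with EGFlow and 0, 0 and 0.856 CPM with EGFhigh at 72 h (adjusted p-value 6.45e-04), and the matrix protein VIT at 14.3, 26.5, 22 and 16.4 CPM and 0.35, 1.07 and 0.856 CPM (adjusted p-value 0.00657). Ribosome biogenesis had medians of -0.82 with EGFlow and -0.84 with EGFhigh, with 64 and 52 of 91 genes lower, and interferon-stimulated genes 1.61 and 1.23, with 24 and 14 of 42 higher. Mitosis genes had -0.56 and -1.36, with 22 and 54 of 72 lower, DNA replication -0.19 and -0.90, with 3 and 23 of 57 lower, and the cornified envelope 0.18 and 1.17, with 2 and 11 of 39 higher.

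**Figure D5:**
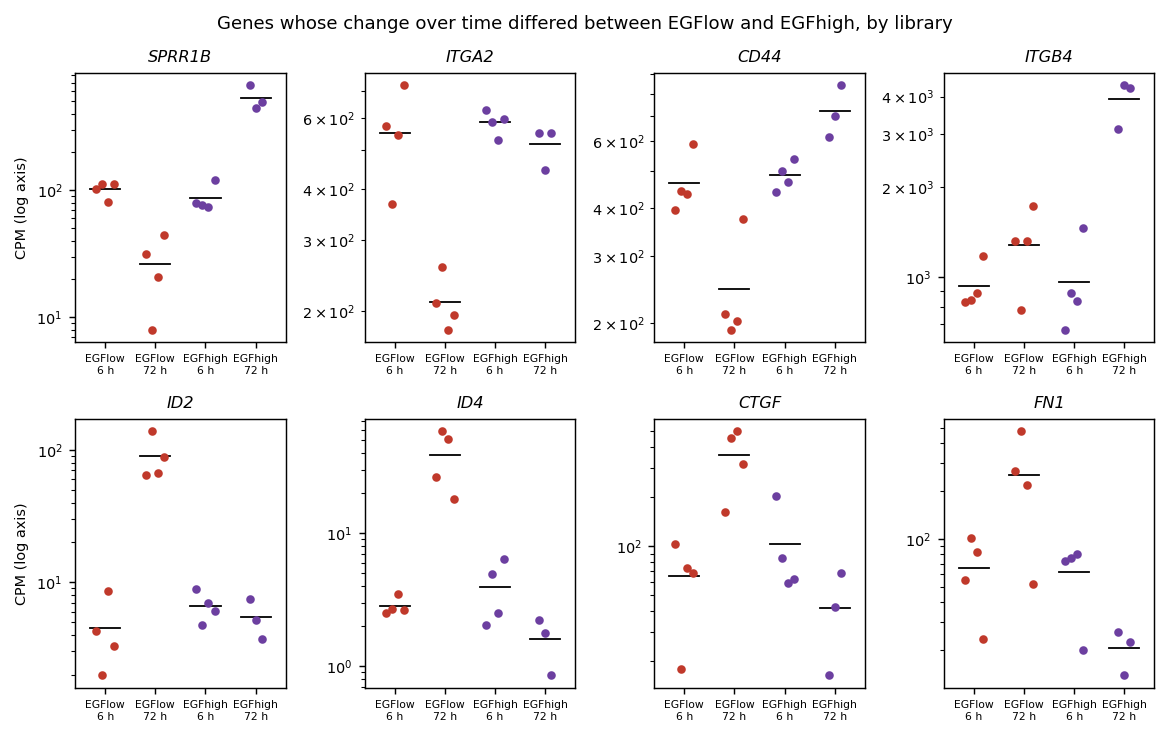
CPM (log axis) of 8 genes whose change from 6 h to 72 h differed between EGFlow and EGFhigh in Kyse30 cells; each point is 1 library and each bar a group mean. At 6 h the ranges of the doses overlapped for all 8 genes, and at 72 h the EGFhigh libraries lay above all EGFlow libraries for the top 4 genes and below them for the bottom 4.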

How the data were processed

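RNA was sequenced from Kyse30 cells, and the values deposited by the authors were raw read counts per gene, 1 file per library. The submitters' processing notes name STAR, HTSeq and GRCh38/hg38; versions, annotation and strand setting are not given in the sources used here. Tally lines that name no gene held 38.1% to 47.8% of the reads in the 8 libraries, mostly reads with no unique position (30.7% to 38.8%), and were left out. Symbols came from GENCODE (58275 of 58395 IDs). The 43 Kyse30 libraries in 13 groups were fitted together with edgeR 4.0.16 (R 4.3.3): genes passed filterByExpr (minimum count 10, total 15), were TMM-scaled and tested by the quasi-likelihood test with Benjamini-Hochberg adjustment. Fold changes were taken from the fit, and CPM used TMM library sizes. The edgeR steps were tested on simulated data. Within groups, replicate libraries differed beyond sampling noise (chi-square per degree of freedom 11.9 to 38.5).

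Members and gene lists were chosen with earlier results of these data known. Named were the 10 highest and 10 lowest log2FC among DEGs without overlap and with a mean of at least 5 CPM, up to 4 DEGs per list and direction by adjusted p-value, the 4 highest and 4 lowest differences to EGFhigh, cell type markers and a set of receptor, laminin and prognostic genes; from these a selection is described, and some are not reported here. UTP20 was named for its promoter, which was shown for the DEG with the lowest p-value per list that held the motif outside annotated transcripts. Genes on chromosome 8 were left out of this choice. Alternatives were DESeq2 1.42.0, RLE size factors, other filters, only the libraries compared, a replicate block and leaving out each library. EGFlow against untreated cells at each time was added after the other comparisons and run in the edgeR fit only.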

Additional observations from a re-analysis of the deposited data

Results flagged for a closer look

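In groups of 4 libraries, a library was marked when its gap to the nearest other exceeded Dixon's critical value, which chance does in about 1 of 20 groups. Among 186 groups of named genes 18 (9.68%) were marked. In replicate 2 of EGFlow at 6 h these were TXNIP (369 CPM), BCL6 (24.8 CPM) and FOXD1 (48.7 CPM). The other 6 h values were FGD3 in replicate 1 (1.39 CPM), EPCAM in replicate 1 (243 CPM), CDC20 in replicate 3 (152 CPM), ID4 in replicate 3 (3.51 CPM), TSR1 in replicate 4 (130.3 CPM), ITGB4 in replicate 4 (1181 CPM) and KRT14 in replicate 4 (1.49 CPM). At 72 h, replicate 4 was marked for KRT6A (126 CPM), CD44 (375 CPM), DST (1337 CPM) and NPM1 (999 CPM), replicate 2 for PLK1 (50.9 CPM) and ID1 (520.4 CPM), replicate 1 for CCND1 (516 CPM) and replicate 3 for UTP20 (33 CPM). Replicate 3 at 72 h was also marked for its total of 3703085 counts.

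The change from 6 h to 72 h differed between EGFlow and EGFhigh for 117 genes in edgeR's test of the difference. On the log2 scale, the EGFlow change minus the EGFhigh change was 5.85 for CPVL, 5.10 for ID4, 5.04 for VIT, 4.57 for ID2, 3.72 for CTGF, 3.51 for FN1 and 2.13 for ID1. In the other direction it was -7.62 for PDE2A, -4.86 for SPRR2A, -4.57 for SPRR1B, -3.82 for FAM83A, -2.07 for FOXD1, -1.56 for ITGB4, -1.48 for CD44 and -1.21 for ITGA2. For PDE2A and CPVL 1 group was at or near 0 counts, so that these fitted values depend on the prior count and are no bounds.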

How the results depend on the processing

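The count of DEGs between EGFlow 72 h and 6 h, 2265, was 2240 to 2708 under the 7 alternatives in tool, scaling, filter, libraries or fold and 1554 to 2169 with 1 library left out. Against the untreated change, 0 DEGs became 77 without the filter, 47 with DESeq2, 3 with only the libraries compared (DCBLD2, GFOD1 and ATF3) and 0 to 11 with 1 library left out. Against EGFhigh, 117 became 308 without the filter, 213 with DESeq2, 85 with only the libraries compared, where 30 were higher and 55 lower, and 49 to 139 with 1 library left out. The untreated count of 238 became 407 without the filter, 477 with DESeq2, 433 with only the libraries compared and 72 to 155 with 1 left out, and the EGFhigh count of 1892 became 2367 with DESeq2, 1286 with only the libraries compared and 945 to 2061 with 1 left out. With 1 library left out, mitosis genes lower numbered 10 to 24 and interferon-stimulated genes higher 14 to 27. The causes were not tested.

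Replicate numbers are shared between groups in the labels. Correlations of deviations between the times were 0.036 to 0.145 for the same number (mean 0.077). For different numbers they were -0.083 to 0.055 (mean -0.026). All were weak, but higher on average for the same number, so a shared effect of the number is not excluded. The main fit did not include the number. With a replicate block the counts were 2708 for EGFlow, of which 2251 were among the 2265, 18 against untreated, 200 against EGFhigh, 410 in untreated and 2191 in EGFhigh-treated cells.

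TIMP1, whose log2FC was near 0, turned negative without the filter (-0.016), with the block (-0.024) and without some single libraries (-0.12 to 0.14 over all 8), and KRT5, near the floor, without some single libraries (-0.19 to 0.56 over all 8). Neither was called. Depth limits genes under about 0.85 CPM, the floor of the shallowest of the 8 libraries.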
